A study of Mus musculus with 32 samples.

Results

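ISG15 is a ubiquitin-like modifier that is joined to lysines of other proteins, and the genes described here are those of its conjugation cycle in the mouse. They are *Isg15*, which encodes the modifier, *Uba7*, which encodes the activating enzyme (E1), *Ube2l6*, which encodes the conjugating enzyme (E2), *Herc6*, which encodes the ligase (E3), and *Usp18*, which encodes the protease that takes ISG15 off its targets. They were chosen by these roles, with earlier results of these data known. All 5 were found among the 54281 gene identifiers of the count table, and all 5 are among the 15257 genes that passed the filter on low counts. The cells sequenced were bone marrow-derived macrophages (BMDMs), which are macrophages differentiated in culture, of mice with 2 genotypes, *Trex1* FL/FL R26 CreERT2 and, as controls, *Trex1* WT/FL R26 CreERT2. TREX1 is a nuclease that degrades DNA in the cytosol. In R26 CreERT2 cells, a Cre recombinase expressed from a ubiquitously active locus is switched on by 4-hydroxytamoxifen (4-OHT) and then excises the part of *Trex1* that lies between loxP sites, so that treated *Trex1* FL/FL cells can lose both alleles and treated *Trex1* WT/FL cells keep a wild type allele. Cells of both genotypes, all carrying the recombinase, received 4-OHT at 2 µg/ml over 22 h or stayed untreated, and were harvested 1, 2, 3 or 4 days after the drug was taken off. Genotype, treatment and day define 16 groups of 2 libraries each, and nothing in the labels says that these came from separate animals or cultures, so p-values measure the spread between these libraries, which may be technical. The age of the mice is not given in the sources used here.

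The ISG15 cycle runs in parallel to that of ubiquitin. The E1 activates the modifier with ATP and passes it to the E2, an E3 brings the loaded E2 to its targets, and the protease reverses the bond. Its genes are known as interferon-stimulated genes (ISGs), transcribed after type I interferon has signalled through its receptor to transcription factors such as STAT2 and IRF9. USP18 has a further known role that does not need its protease activity, since it binds an interferon receptor chain and dampens signalling. In human cells HERC5 is the main ligase, and in the mouse, which lacks that gene, HERC6 takes its place.

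The 5 genes lie on 4 chromosomes (GRCm39, GENCODE vM39). *Isg15* (ENSMUSG00000035692.7) is at chr4:156283883-156285303 on the minus strand, and its reference transcript has 2 exons and 782 bases. *Uba7* (ENSMUSG00000032596.14) is at chr9:107852704-107861262 on the plus strand with 24 exons and 3202 bases. *Ube2l6* (ENSMUSG00000027078.14) is at chr2:84628630-84640783 on the plus strand with 4 exons and 1568 bases. *Herc6* (ENSMUSG00000029798.11) is at chr6:57557932-57642597 on the plus strand with 23 exons and 5800 bases. *Usp18* (ENSMUSG00000030107.10) is at chr6:121222848-121247877 on the plus strand with 11 exons and 1780 bases. Sequence was shared with other annotated transcripts to different degrees, counted in 31-base words of the transcripts that recur in another gene. The largest single shares were 26.5% of *Isg15* with *Gm46878*, 11.2% of *Herc6* with *Gm45193* and 10.4% of *Ube2l6* with *Gm75306*. Of these, *Gm45193* is in the count table, with 504 counts over all libraries beside 144899 for *Herc6*, and how reads of the shared words were divided between them was not tested. *Gm46878* and *Gm75306* are not in the count table, so their counts could not be compared. Reads that they share with *Isg15* or *Ube2l6* cannot be told apart.

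Because the genes moved together, their promoters were searched for the cores of the 2 elements through which interferon signalling is known to act. The interferon-stimulated response element (ISRE) was searched as GAAANNGAAA on both strands and the gamma-activated site (GAS) as TTCNNNGAA, which reads the same on both strands. The 250 bases before the annotated start were taken from RefSeq (GRCm38.p6), which gave a promoter for *Isg15*, *Uba7*, *Ube2l6* and *Herc6*. Of 32851 promoters of this length, 2.98% held the ISRE core and 7.02% the GAS core. The *Isg15* promoter held 3 overlapping ISRE cores in 1 run that lies 57 to 78 bases before the start (chr4:156200860-156200911, minus strand, the run in capitals):
Isg15: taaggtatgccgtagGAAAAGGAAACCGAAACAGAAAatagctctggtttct
Neighbouring cores share a GAAA repeat in this run. Neither core was found in the windows of *Uba7*, *Ube2l6* and *Herc6*, and no GAS core was found for *Isg15*. A match describes the letters of the window, and the lack of one says only that these exact letters are not in it.

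Library totals ranged from 35120505 to 63760884 counts. In all 16 groups the pair of libraries showed more difference than counting alone gives (9.55 to 51.5 for chi-square over its degrees of freedom), and none were counted as duplicates. The targeted gene followed the labels. *Trex1* had 0 counts in 6 of the 8 libraries of 4-OHT-treated *Trex1* FL/FL cells, which allows up to 3 counts in each, and 14 and 9 counts in the other two, both from day 2. In 4-OHT-treated *Trex1* WT/FL cells the mean *Trex1* level was 44.9% of that in untreated *Trex1* WT/FL cells at day 1, 48.1% at day 2, 54.9% at day 3 and 57.4% at day 4. The macrophage label was checked against 7 markers (*Adgre1*, *Csf1r*, *Itgam*, *Cd68*, *Fcgr1*, *Mertk* and *Lyz2*), which all had at least 1140 counts in every library. Their summed level was 15024 to 17032 CPM (counts scaled to library size with TMM factors) on day 1 in all arms. Markers of B cells, T cells and mast cells or basophils summed to at most 0.541 CPM in any library, with *Mcpt8* at 0 in all, and those of fibroblasts to at most 1.66 CPM, of dendritic cells to at most 2.47 CPM and of neutrophils and their progenitors to at most 13.8 CPM.

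The modifier gene was low on day 1 and rose steeply by day 2 in every arm. In 4-OHT-treated *Trex1* FL/FL cells *Isg15* was at 10.4 and 9.96 CPM at day 1, 518 and 507 at day 2, 382 and 317 at day 3 and 389 and 364 at day 4. In 4-OHT-treated *Trex1* WT/FL cells it was at 7.05 and 6.75 CPM at day 1, 181 and 145 at day 2, 122 and 152 at day 3 and 47.2 and 53.3 at day 4. Untreated *Trex1* FL/FL cells had 11.6 and 6.08 CPM at day 1, 145 and 117 at day 2, 116 and 98.4 at day 3 and 53.6 and 51.0 at day 4, and untreated *Trex1* WT/FL cells had 10.7 and 9.36, 146 and 124, 90.9 and 103, and 36.3 and 43.8 on the same days. From day 2 on, both treated *Trex1* FL/FL libraries were higher than all libraries of the other arms, whose highest value was 181 CPM. Here and for the genes below, the share of all tested genes with such a gap is not given. The order of the 16 group means was led by treated *Trex1* FL/FL cells on days 2, 4 and 3 (means 513, 376 and 349 CPM), with days 4 and 3 overlapping, and the 4 day 1 groups were lowest. Library ranges overlapped in 9 of the 15 pairs of neighbours in this order. In bulk RNA, more cells that express a gene and more RNA per cell cannot be told apart.

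The E1 gene took a different course from the modifier gene, with its highest group mean at the day 3 harvest in every arm. In treated *Trex1* FL/FL cells the libraries of days 3 and 4 overlapped. In 4-OHT-treated *Trex1* FL/FL cells *Uba7* was at 42.4 and 42.0 CPM at day 1, 378 and 371 at day 2, 433 and 383 at day 3 and 400.1 and 373 at day 4. Treated *Trex1* WT/FL cells had 38.5 and 39.2 CPM at day 1, 226 and 182 at day 2, 298 and 335 at day 3 and 174 and 196 at day 4. The 4 untreated libraries, taken over both genotypes, spanned 41.6 to 44.8 CPM at day 1, 178 to 192 at day 2, 263 to 305 at day 3 and 171 to 186 at day 4. Treated *Trex1* FL/FL cells were above all others from day 2 on here too, though by the smallest margin of the 5 genes, with a lowest value of 371 CPM beside a highest value of 335 CPM elsewhere. Library ranges overlapped in 11 of 15 pairs of neighbouring groups.

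On day 2 the E2 gene was highest. In 4-OHT-treated *Trex1* FL/FL cells *Ube2l6* was at 47.4 and 45.0 CPM at day 1, 374 and 385 at day 2, 344 and 309.5 at day 3 and 353 and 324 at day 4. Treated *Trex1* WT/FL cells had 41.5 and 42.4 CPM, 188 and 177, 149 and 184, and 85.9 and 95.8 on days 1 to 4. The untreated libraries spanned 44.5 to 48.1 CPM at day 1, 161 to 177 at day 2, 119 to 151 at day 3 and 68.3 to 86.9 at day 4. Values of treated *Trex1* FL/FL cells from day 2 on (309.5 to 385 CPM) lay above all others (at most 188 CPM), and 8 of 15 pairs of neighbouring groups overlapped.

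The E3 gene had values on day 3 near those of day 2 in every arm, and lower ones on day 4. This last step was small in treated *Trex1* FL/FL cells (log2 fold change -0.09) and larger in the other arms. In 4-OHT-treated *Trex1* FL/FL cells *Herc6* was at 20.0 and 19.0 CPM at day 1, 284 and 297 at day 2, 265 and 252 at day 3 and 244 and 243 at day 4. Treated *Trex1* WT/FL cells had 17.4 and 16.8 CPM, 132 and 114, 113 and 143, and 50.0 and 64.1 on days 1 to 4. The untreated libraries spanned 15.7 to 19.9 CPM at day 1, 89.4 to 113 at day 2, 89.4 to 113 at day 3 and 45.2 to 53.8 at day 4. The 6 libraries of treated *Trex1* FL/FL cells from days 2 to 4 (243 to 297 CPM) did not overlap with any other, and 9 of 15 neighbouring pairs of groups overlapped.

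The protease gene took a course close to that of the modifier gene. In 4-OHT-treated *Trex1* FL/FL cells *Usp18* was at 12.4 and 11.7 CPM at day 1, 253 and 267 at day 2, 215 and 191 at day 3 and 230.2 and 214 at day 4. Treated *Trex1* WT/FL cells had 9.32 and 6.84 CPM, 105 and 91.3, 67.0 and 84.2, and 31.0 and 36.8 on days 1 to 4. The untreated libraries spanned 11.2 to 12.8 CPM at day 1, 78.2 to 90.9 at day 2, 58.5 to 68.3 at day 3 and 27.1 to 35.7 at day 4. On day 1 the 2 treated *Trex1* WT/FL libraries were the lowest of all 8, and from day 2 on treated *Trex1* FL/FL cells (191 to 267 CPM) did not overlap with any other group (at most 105 CPM). Library ranges overlapped in 8 of 15 pairs of neighbours.

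**Figure D1:**
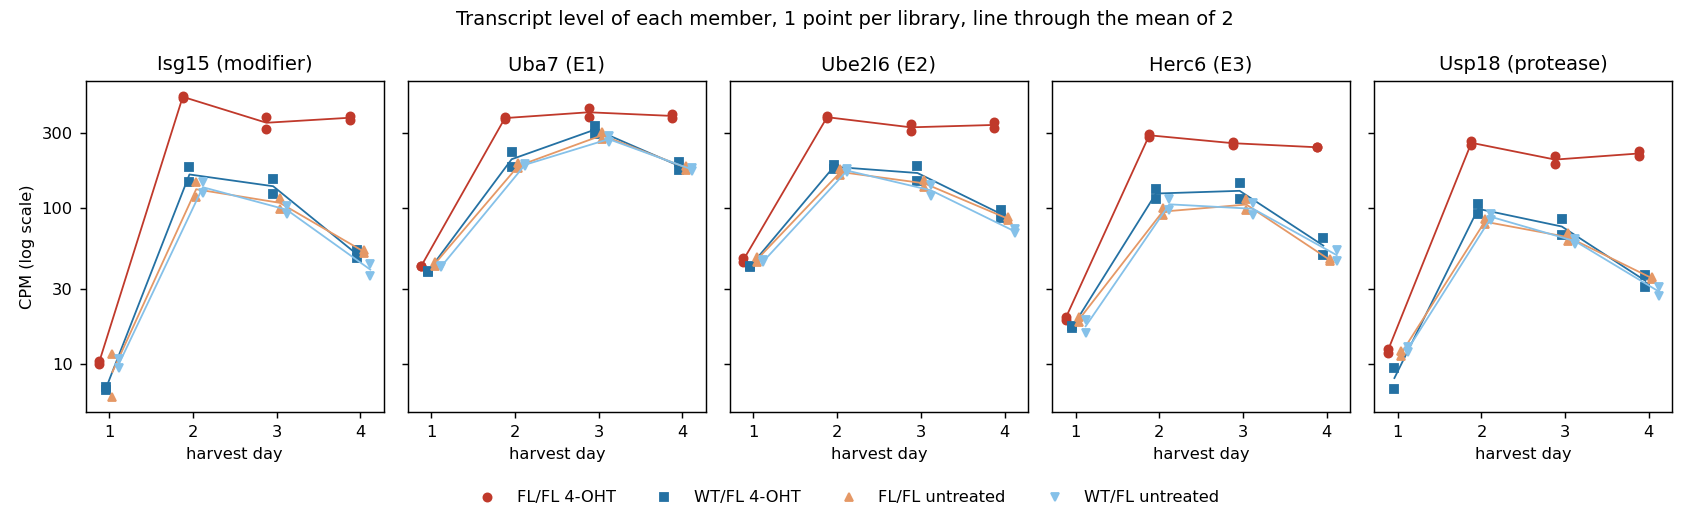
CPM of each gene (vertical axis, log scale) by harvest day (horizontal axis) in the 4 arms, with 1 point per library and lines through the mean of 2. All arms rise from day 1 to day 2, and from then on treated *Trex1* FL/FL cells (red circles) stay above the other arms, which fall between days 3 and 4.

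To ask what loss of *Trex1* does to these genes, treated *Trex1* FL/FL cells were compared with treated *Trex1* WT/FL cells on each day. None of the 5 genes was called on day 1, all 5 were higher on days 2, 3 and 4, and the differences were widest on day 4, when *Isg15* was 7.49-fold, *Usp18* 6.57-fold, *Herc6* 4.27-fold, *Ube2l6* 3.73-fold and *Uba7* 2.09-fold higher (n = 2 libraries per group). Genes were called by the thresholds of the study (adjusted p under 0.01, log2 fold change beyond 1.5 in either direction), and also by an adjusted p below 0.05 with no minimum fold, which is named the wider rule. Adjusted p-values come from the quasi-likelihood test of edgeR, corrected by Benjamini-Hochberg over all 15257 genes, and errors of log2 fold changes are SEs. On day 1 the log2 fold changes were between 0.12 for *Uba7* and 0.58 for *Usp18*. By both rules 0 members were called with edgeR, where 2 had an unadjusted p below 0.05, and DESeq2 called 0 by the study's thresholds and *Usp18* by the wider rule. Without the filter on low counts edgeR called *Isg15* (0.55, adjusted p = 2.43e-07) and *Usp18* (0.57, 4.7e-08) by the wider rule. In that fit 0.25% of 26767 genes were higher by this rule. That fit gave all genes a spread set by their level alone, with a quasi-dispersion of 0.624 for *Isg15* in place of 4.88 and of 0.641 for *Usp18* in place of 1.75. With the filter, 0.00655% of all genes were higher by the study's thresholds on this day and 0.00655% by the wider rule, which is 1 gene.

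On day 2 the log2 fold change was 1.65 ± 0.20 for *Isg15* (adjusted p = 9.91e-06), 1.41 ± 0.12 for *Usp18* (2.75e-08), 1.24 ± 0.13 for *Herc6* (1.33e-06), 1.05 ± 0.09 for *Ube2l6* (4.57e-09) and 0.88 ± 0.08 for *Uba7* (2.01e-08). The study's thresholds called 1 of 5 members, *Isg15*, beside 0.498% of all genes called higher, and the wider rule called 5 of 5 beside 7.79%. On day 3 the order of *Isg15* (1.35 ± 0.20) and *Usp18* (1.43 ± 0.12) was within their errors, *Herc6* (1.01 ± 0.13) and *Ube2l6* (0.97 ± 0.09) were close to each other, and *Uba7* was lowest with 0.37 ± 0.08 (adjusted p = 0.00164). The study's thresholds called 0 of 5 with edgeR and with DESeq2 on this day (0.485% of all genes were higher), while the wider rule called 5 of 5 (9.90% of all genes), and all 5 had an unadjusted p below 0.05. On day 4 the log2 fold change was 2.91 ± 0.21 for *Isg15* (adjusted p = 5.86e-09), 2.72 ± 0.12 for *Usp18* (4.93e-13), 2.10 ± 0.14 for *Herc6* (3.90e-10), 1.90 ± 0.09 for *Ube2l6* (3.26e-14) and 1.06 ± 0.08 for *Uba7* (1.17e-10). The study's thresholds then called 4 of 5, all but *Uba7*, beside 1.65% of all genes, and the wider rule called 5 of 5 beside 13.4%. The median log2 fold change over the 5 members was 0.18, 1.24, 1.01 and 2.10 on days 1 to 4, and that of all tested genes was between -0.04 and -0.01. On days 2 and 3 these counts turn on small differences around the fold threshold. Without the first treated *Trex1* WT/FL library of day 2 the count is 2, and without the second one of day 3 it is 2, or 1 without the second treated *Trex1* FL/FL library of day 3. By the wider rule *Uba7* on day 3 did not pass without the first treated *Trex1* WT/FL library (adjusted p = 0.0578) or the first treated *Trex1* FL/FL library (adjusted p = 0.0603) of that day.

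In the same libraries the summed macrophage markers were lower in treated *Trex1* FL/FL than in treated *Trex1* WT/FL cells on days 2 and 3, and overlapped on day 4. *Lyz2* weighs most in this sum, with 11134 to 33994 CPM over all libraries beside at most 6240 CPM for any other marker. The summed level was 26245 to 28253 CPM in treated *Trex1* FL/FL cells and 31671 to 33691 in treated *Trex1* WT/FL cells at day 2, 38258 to 38735 and 45021 to 47292 at day 3, and 28567 to 30511 and 30227 to 30996 at day 4. The part of this in the differences above was not tested.

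**Figure D2:**
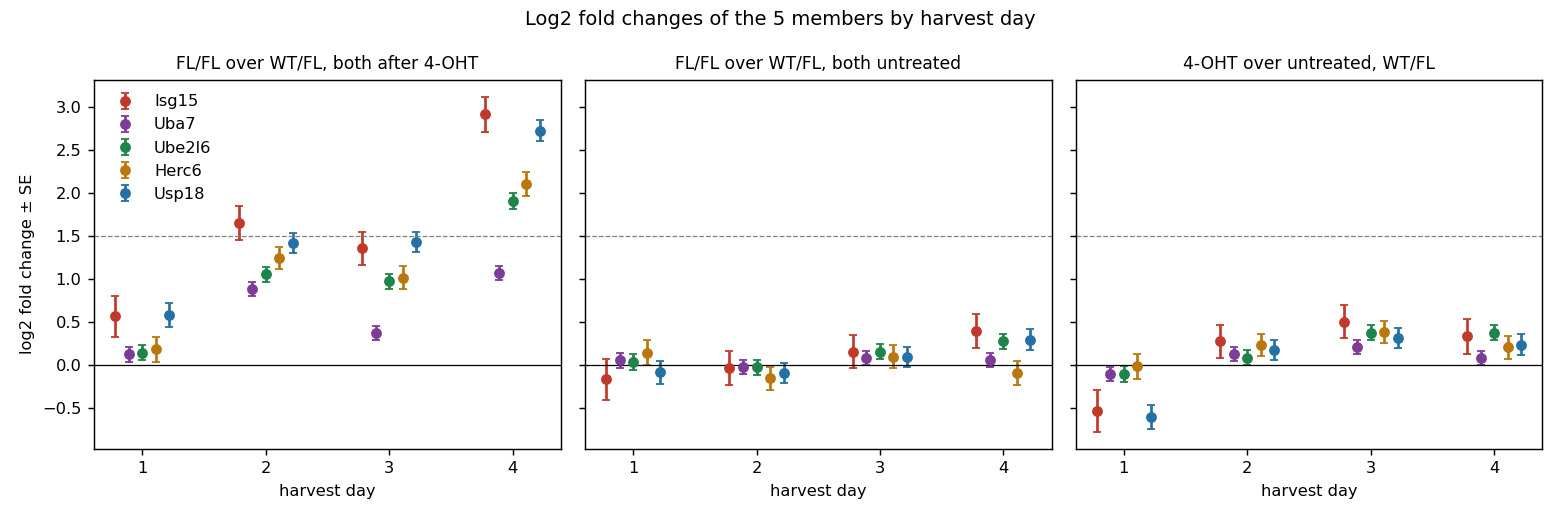
Log2 fold change with its SE (vertical axis) by harvest day for the 5 genes, for treated *Trex1* FL/FL over treated *Trex1* WT/FL cells, for the untreated genotypes, and for 4-OHT over untreated *Trex1* WT/FL cells, with the fold threshold of 1.5 as a dashed line. Differences above 0.8 appear only in the left panel, from day 2 on, and reach 2.91 for *Isg15* on day 4.

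Days 2 to 4 were also tested in 1 step for each gene by an exact permutation test, in which the genotype labels of the treated libraries were exchanged within each day (two-sided, unadjusted, 10 such tests with those of the next paragraph). The mean genotype difference in log2 CPM was 1.97 for *Isg15*, 1.85 for *Usp18*, 1.46 for *Herc6*, 1.31 for *Ube2l6* and 0.77 for *Uba7*. Each gave p = 0.00926 by the exact test, which is the smallest value these arrangements can give, and each gene was higher in 6 of 6 treated *Trex1* FL/FL libraries than in both treated *Trex1* WT/FL libraries of its day. The share of all tested genes that reach this value or separate in this way is not given. By the wider rule 7.79%, 9.9% and 13.4% of all genes were higher on days 2, 3 and 4. The exchange takes the days as independent, and the labels do not say whether libraries of different days came from the same cultures. If they did, the smallest value of the exact test would be 0.333. This limit also holds for the other exact tests over days 2 to 4 below.

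Without 4-OHT, and with 4-OHT in *Trex1* WT/FL cells, all values lay between -0.61 and 0.50 on the log2 scale. In untreated cells the log2 fold change between *Trex1* FL/FL and *Trex1* WT/FL cells was between -0.17 and 0.14 at day 1, -0.16 and -0.03 at day 2, 0.08 and 0.15 at day 3 and -0.10 and 0.39 at day 4, and none of the 5 genes was called on any day by edgeR with its filter on low counts. By the wider rule 0% of all genes changed in either direction at day 1, 0.0197% at day 2, 0% at day 3 and 2.01% at day 4. On days 1 to 3, 0 of 5 members had an unadjusted p below 0.05 and DESeq2 called 0. On day 4, 2 of 5 did, *Ube2l6* (0.27 ± 0.09) and *Usp18* (0.29 ± 0.12), and DESeq2 called *Ube2l6* by the wider rule, as edgeR without the filter did for *Isg15*, *Ube2l6* and *Usp18*. Without the filter 2.59% of all genes changed in either direction on that day. In *Trex1* WT/FL cells, 4-OHT was compared with no treatment, which addresses the effect of the drug and of losing the floxed allele with the other one kept. On day 1 all 5 had lower values after 4-OHT, among them -0.61 ± 0.14 for *Usp18* and -0.54 ± 0.24 for *Isg15* (unadjusted p = 0.000315 and 0.0422, adjusted p = 0.553 and 1). From day 2 on all 5 had higher values after 4-OHT, with log2 fold changes of 0.08 to 0.27 at day 2, 0.20 to 0.50 at day 3 and 0.08 to 0.37 at day 4. No member passed the wider rule with edgeR, and the lowest adjusted p was 0.054, for *Ube2l6* on day 3, when all 5 had an unadjusted p below 0.05, beside 2 on day 1, 0 on day 2 and 1 on day 4. DESeq2 called *Usp18* lower on day 1 and *Ube2l6* higher on days 3 and 4 by that rule. Leaving out either of 2 libraries of day 3 took *Ube2l6* past it too (adjusted p = 0.00298 and 0.0233). Without the filter edgeR called 9 values of these 4 days by it, of which *Isg15* and *Usp18* at day 1 were lower after 4-OHT and the others higher. In that fit 0.4%, 0.471%, 1.53% and 1.25% of all genes changed in either direction on days 1 to 4. With the filter, the share of all genes higher by the wider rule was 0%, 0.00655%, 0.131% and 0.151% on days 1 to 4. Shares of all genes called by DESeq2 are not given here. Over days 2 to 4 the mean 4-OHT difference in log2 CPM in *Trex1* WT/FL cells was 0.36 for *Isg15* (exact p = 0.0185), 0.27 for *Ube2l6* (exact p = 0.00926), 0.27 for *Herc6* (exact p = 0.0463), 0.23 for *Usp18* (exact p = 0.00926) and 0.13 for *Uba7* (exact p = 0.0833), with the treatment labels exchanged within each day. The value of *Herc6* does not stay below 0.05 without 1 of 7 of the 12 libraries, and that of *Uba7* falls below it without either of 2 libraries.

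Compared with their own untreated cells, *Trex1* FL/FL cells gave a similar picture. On day 1 after 4-OHT the log2 fold changes were between -0.04 and 0.19, with 0 members called by edgeR or DESeq2 and 0 at an unadjusted p below 0.05. They were 1.97 ± 0.20 for *Isg15*, 1.68 ± 0.12 for *Usp18*, 1.62 ± 0.13 for *Herc6*, 1.17 ± 0.09 for *Ube2l6* and 1.02 ± 0.08 for *Uba7* on day 2. On day 3 they ranged from 0.49 for *Uba7* to 1.70 for *Isg15*, and on day 4 from 1.10 for *Uba7* to 2.85 for *Isg15*. The wider rule called 5 of 5 on days 2, 3 and 4, beside 0% of all genes at day 1, 10.0% at day 2, 11.8% at day 3 and 13.7% at day 4. The interaction of genotype and 4-OHT, which is the 4-OHT effect in *Trex1* FL/FL cells less that in *Trex1* WT/FL cells, was tested in the same fit. It passed the wider rule for 0 of 5 members at day 1 (2 at an unadjusted p below 0.05, 0 with DESeq2, and *Isg15* and *Usp18* without the filter), 5 of 5 at day 2, 4 of 5 at day 3 and 5 of 5 at day 4, beside 0%, 4.97%, 4.90% and 7.38% of all genes. *Uba7* on day 3 was the exception, with a log2 value of 0.29 ± 0.12 (adjusted p = 0.138). Without the filter, 0.478% of all genes were higher by the wider rule in the interaction at day 1. *Isg15* on day 3 did not pass without 1 of 3 libraries of that day (adjusted p = 0.053 to 0.0657), and on day 1 it passed without the first untreated *Trex1* FL/FL library (adjusted p = 0.0211). These comparisons share the treated *Trex1* FL/FL libraries with those above.

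The steps between days show where the differences arose. From day 1 to day 2 all 5 genes rose in all 4 arms and passed the study's thresholds, as did 4.37% of all genes in treated *Trex1* FL/FL, 3.32% in treated *Trex1* WT/FL, 3.34% in untreated *Trex1* FL/FL and 3.35% in untreated *Trex1* WT/FL cells. In untreated *Trex1* WT/FL cells the log2 rise was 3.75 ± 0.23 for *Isg15*, 2.82 ± 0.13 for *Usp18*, 2.60 ± 0.15 for *Herc6*, 2.17 ± 0.09 for *Uba7* and 1.93 ± 0.09 for *Ube2l6*. In treated *Trex1* FL/FL cells it was 5.66 ± 0.24 for *Isg15*, 4.43 ± 0.14 for *Usp18*, 3.90 ± 0.15 for *Herc6*, 3.15 ± 0.09 for *Uba7* and 3.04 ± 0.09 for *Ube2l6*. The summed macrophage markers rose over the same days, from 15471 to 17032 CPM on day 1 to 30851 to 32621 on day 2 in untreated *Trex1* WT/FL cells, and their part in the rise was not tested. The genotype difference after 4-OHT widened from day 1 to day 2 by 0.76 to 1.09 on the log2 scale, and all 5 members passed the wider rule (5.31% of all genes in either direction), with *Isg15* close to the threshold (adjusted p = 0.0487). *Isg15* did not pass without 1 of 7 of the 8 libraries (adjusted p = 0.107 to 0.188), and *Usp18* did not pass with only the treated libraries in the fit (adjusted p = 0.0719) or without the first treated *Trex1* WT/FL library of day 1 (adjusted p = 0.0751).

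From day 2 to day 3 *Uba7* went its own way. It rose by 0.63 ± 0.08 in treated *Trex1* WT/FL, 0.65 ± 0.08 in untreated *Trex1* FL/FL and 0.54 ± 0.08 in untreated *Trex1* WT/FL cells (adjusted p = 3.87e-07, 2.23e-07 and 4.09e-06), and the value in treated *Trex1* FL/FL cells was 0.12 ± 0.08 (adjusted p = 0.236). *Usp18* fell in all 4 arms, by 0.33 to 0.52 on the log2 scale. *Isg15* fell by 0.55 ± 0.19 in treated *Trex1* FL/FL cells (adjusted p = 0.0262). Its value in untreated *Trex1* WT/FL cells was -0.48 ± 0.19 (adjusted p = 0.0547), which passed the wider rule with DESeq2 (adjusted p = 0.0383) and with RLE factors (adjusted p = 0.0476). *Ube2l6* fell in treated *Trex1* FL/FL cells and both untreated arms. *Herc6* passed in no arm, with log2 values between -0.17 and 0.15. By the wider rule 3 of 5 members changed in treated *Trex1* FL/FL (43.2% of all genes), 2 in treated *Trex1* WT/FL (46.3%), 3 in untreated *Trex1* FL/FL (47.1%) and 3 in untreated *Trex1* WT/FL cells (45.0%). Whether several of these falls passed the wider rule rests on single libraries or on the libraries fitted. With only the treated libraries in the fit, *Usp18* did not pass in either treated arm (adjusted p = 0.0617 and 0.0578) and neither did *Ube2l6* in treated *Trex1* FL/FL cells (adjusted p = 0.0504). Leaving out 1 library kept the direction of these falls, but some then did not pass the wider rule. In treated *Trex1* FL/FL cells this was so for 3 of 4 libraries each for *Isg15* (log2 values -0.57 to -0.42) and *Ube2l6* (-0.24 to -0.14). For *Usp18* it was so for 2 of 4 libraries in each of 3 arms (-0.32 to -0.22). For *Ube2l6* in untreated *Trex1* FL/FL cells it was so for 2 of 4 (-0.17 for each). The genotype difference narrowed for *Uba7* (log2 change -0.51 ± 0.12, adjusted p = 0.0144), which was the 1 member that passed the wider rule beside 2.72% of all genes, and which did not pass without 1 of 4 of the 8 libraries (adjusted p = 0.0615 to 0.124). The other members had values between -0.30 and 0.02.

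From day 3 to day 4 the arms parted. All 5 genes fell in each of the 3 arms with an intact or partly kept *Trex1*, and none passed in treated *Trex1* FL/FL cells, where log2 values were between -0.09 and 0.13 (0 of 5 at an unadjusted p below 0.05, and 0 with DESeq2). In treated *Trex1* WT/FL cells *Isg15* fell by 1.45 ± 0.20, *Herc6* by 1.17 ± 0.13, *Usp18* by 1.16 ± 0.12, *Ube2l6* by 0.87 ± 0.09 and *Uba7* by 0.77 ± 0.08 on the log2 scale. The ranges were -1.18 for *Herc6* to -0.69 for *Uba7* in untreated *Trex1* FL/FL cells and -1.28 for *Isg15* to -0.65 for *Uba7* in untreated *Trex1* WT/FL cells. By the wider rule 9.01% of all genes fell in treated *Trex1* FL/FL, 9.31% in treated *Trex1* WT/FL, 11.5% in untreated *Trex1* FL/FL and 10.3% in untreated *Trex1* WT/FL cells. The summed macrophage markers were also lower on day 4 than on day 3, in all 4 arms. They went from 45021 to 47292 CPM down to 30227 to 30996 in treated *Trex1* WT/FL, from 43754 to 47900.5 down to 30832 to 32433 in untreated *Trex1* FL/FL, from 44606 to 46269 down to 28579 to 29564 in untreated *Trex1* WT/FL and from 38258 to 38735 down to 28567 to 30511 in treated *Trex1* FL/FL cells. Their part in the falls was not tested. The change of the genotype difference was tested directly. It was 1.55 ± 0.27 for *Isg15*, 1.29 ± 0.17 for *Usp18*, 1.08 ± 0.19 for *Herc6*, 0.92 ± 0.12 for *Ube2l6* and 0.70 ± 0.12 for *Uba7*, and 5 of 5 passed the wider rule beside 7.08% of all genes. The wider genotype difference of day 4 thus went with a fall in the control arm, while the level in treated *Trex1* FL/FL cells stayed close to that of day 3.

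**Figure D3:**
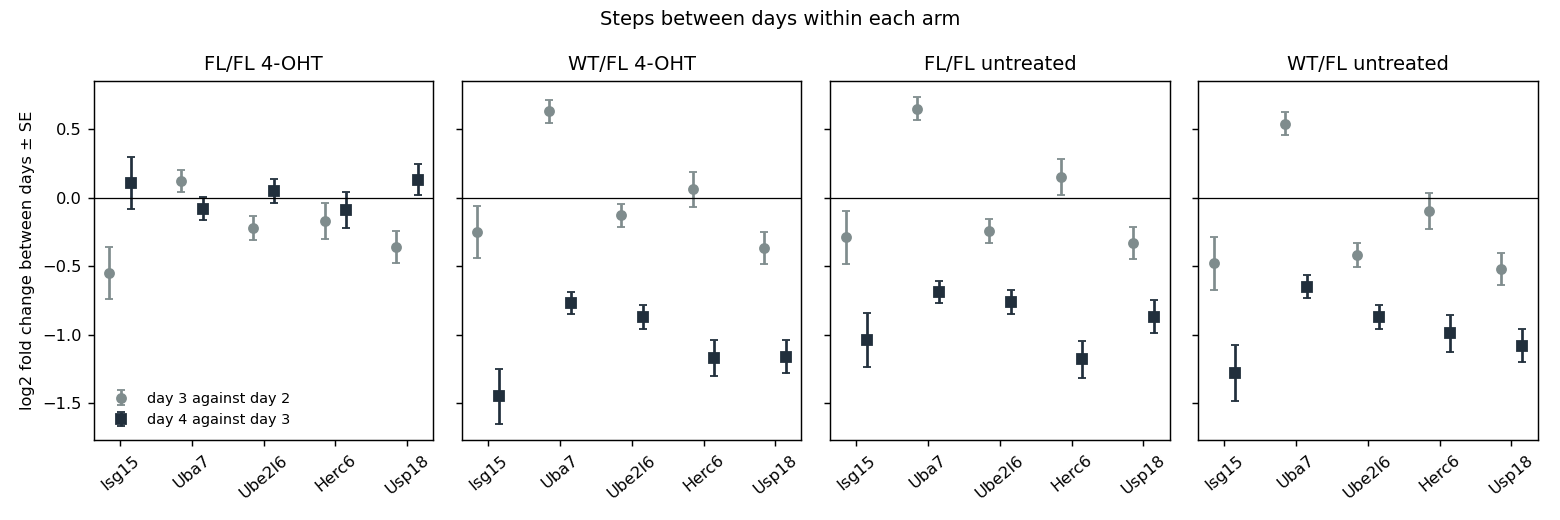
Log2 fold change with its SE between consecutive days (vertical axis) for each gene in each arm, day 3 against day 2 in grey circles and day 4 against day 3 in black squares. The black squares lie between -1.45 and -0.65 in 3 arms and between -0.09 and 0.13 in treated *Trex1* FL/FL cells, and *Uba7* alone has grey circles above 0.5.

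The members differed from each other in the size of the genotype effect. Over days 2 to 4, the difference between 2 members in their genotype difference was tested for all 10 pairs by the same exchange of labels, with adjustment over the 10 pairs. In 9 of 10 pairs the adjusted exact p was below 0.05. *Isg15* exceeded *Uba7* by 1.20, *Ube2l6* by 0.66 and *Herc6* by 0.52 on the log2 scale, and *Usp18* exceeded *Uba7* by 1.08, *Ube2l6* by 0.54 and *Herc6* by 0.40 (each adjusted p = 0.0116 by the exact test). *Uba7* was below *Ube2l6* by 0.54 and below *Herc6* by 0.68 (adjusted p = 0.0116 for both, exact test). The smaller difference of 0.15 between *Herc6* and *Ube2l6* had an adjusted exact p of 0.0206, which rose to between 0.0514 and 0.0617 without 1 of 3 treated libraries of day 4. The pair of *Isg15* and *Usp18* did not pass, with a difference of 0.12 (adjusted p = 0.0833, exact test). This order, with the modifier and the protease at the top, the E3 and E2 next and the E1 last, is one of differences and not of levels.

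Per length of transcript the members also had unequal levels, compared here as CPM per kilobase of the reference transcript, which takes no account of isoforms. On day 1 in untreated *Trex1* WT/FL cells, *Ube2l6* was highest with 28.9 ± 0.71 CPM per kilobase (SD, n = 2), followed by *Uba7* with 13.1 ± 0.16 and *Isg15* with 12.8 ± 1.17, which were within their spread, *Usp18* with 6.93 ± 0.37 and *Herc6* with 2.99 ± 0.40. On day 2 *Isg15* was the highest in all arms. In treated *Trex1* FL/FL cells of day 2 it reached 655 ± 9.56 CPM per kilobase, beside 242 ± 4.99 for *Ube2l6*, 146 ± 5.73 for *Usp18*, 117 ± 1.52 for *Uba7* and 50.0 ± 1.54 for *Herc6*. The share of *Isg15* in the sum of the 5 went from 19.8% at day 1 to 54.1% at day 2 and 48.9% at day 4 in these cells. In treated *Trex1* WT/FL cells it went from 16.0% to 44.7% and back to 30.8%. The share of *Uba7* moved the other way, and on day 4 it was 12.3% (libraries 12.3% and 12.3%) in treated *Trex1* FL/FL cells, 27.7% in treated *Trex1* WT/FL cells, 27.5% in untreated *Trex1* FL/FL cells and 31.1% in untreated *Trex1* WT/FL cells. *Herc6* stayed between 3.87% and 5.35% in all groups. Shares sum to the whole, so a larger share of one gene lowers those of the others.

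**Figure D4:**
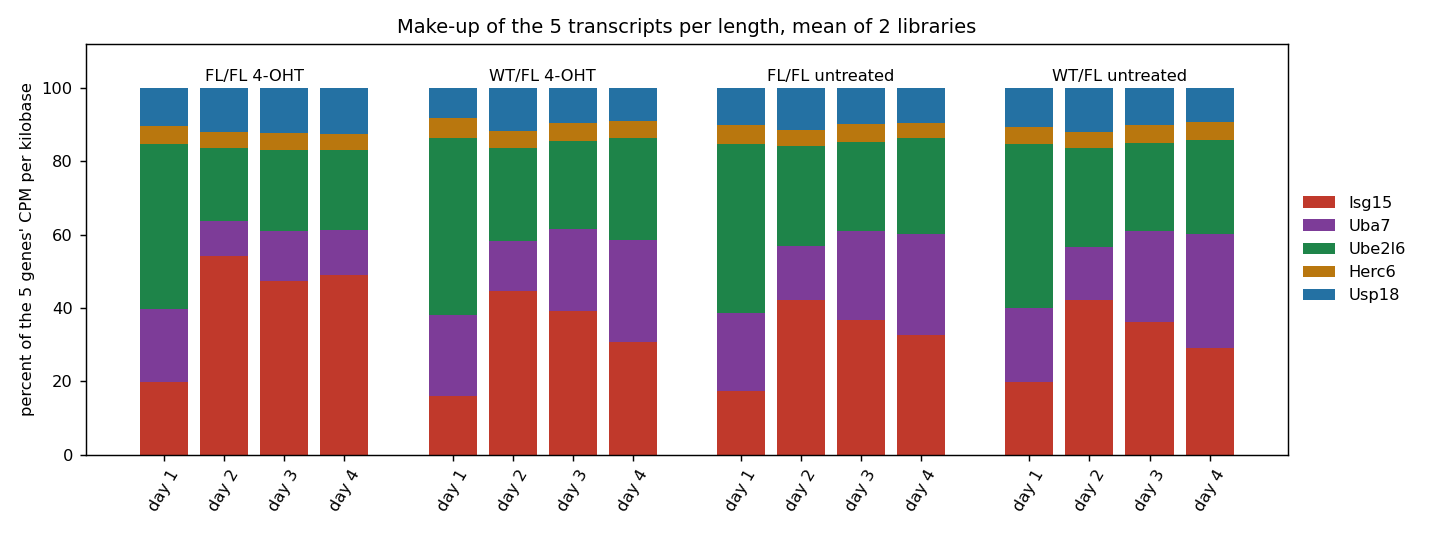
Share of each gene in the summed CPM per kilobase of the 5 (vertical axis, percent, stacked to 100) for each arm and day, as means of 2 libraries. The *Isg15* share is 48.9% on day 4 in treated *Trex1* FL/FL cells and between 29.1% and 32.6% in the other arms, where *Uba7* takes 27.5% to 31.1%.

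On day 4 the genes of ubiquitin and of the enzymes at the same steps of its cycle had log2 fold changes between the treated genotypes of -0.38 to 0.68, beside 1.06 to 2.91 for the 5 members, and the difference between these sets of genes was not tested. Of 16 counterparts, 15 passed the filter on low counts and *Usp13* did not. The counterparts include *Trim25* and *Arih1*, which are also reported as ligases for ISG15. The highest value, 0.68, is that of *Trim25*, and the highest without these ligases was 0.55 for *Rps27a*. On day 4, 0 of 15 were called in either direction by the study's thresholds with edgeR, 8 had an unadjusted p below 0.05, and by the wider rule 3 were higher and 3 lower in treated *Trex1* FL/FL than in treated *Trex1* WT/FL cells, with a median log2 fold change of -0.11 beside -0.04 over all genes. Of all genes, 13.4% were higher and 16.8% lower by that rule. On day 2, 3 of 15 were higher and 1 lower by the wider rule (7.79% and 4.79% of all genes), and on day 3, 2 were higher and 1 lower (9.90% and 9.11%). The ubiquitin genes *Rps27a* and *Ubb* were among the higher ones, with log2 values of 0.55 ± 0.13 and 0.44 ± 0.06. The ubiquitin E1 gene *Uba1*, the counterpart of *Uba7*, had -0.03 ± 0.07 (346 and 353 CPM in the 2 group means) and on day 2 was higher by 0.22 ± 0.07 (adjusted p = 0.0392), and the second ubiquitin E1 gene, *Uba6*, was lower with -0.36 ± 0.08. *Ube2l3*, the E2 closest to *Ube2l6*, had -0.12 ± 0.05 (adjusted p = 0.0814). Of the other genes of the HERC family, *Herc2* (-0.38 ± 0.12) and *Herc1* (-0.28 ± 0.10) were lower, and *Herc3* (-0.21 ± 0.11) and *Herc4* (-0.14 ± 0.07) did not pass on that day. *Herc4* was lower on day 2 (-0.28 ± 0.07, adjusted p = 0.00464) and day 3 (-0.23 ± 0.07, adjusted p = 0.0129). The ubiquitin proteases *Usp2*, *Usp5*, *Usp14* and *Usp21*, of which some also cleave ISG15 in vitro, had values of -0.22, -0.11, -0.11 and -0.01, and none passed. Of the other ligases reported for ISG15, *Trim25* was higher with 0.68 ± 0.07 (adjusted p = 9.46e-09) and *Arih1* had -0.07 ± 0.06.

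**Figure D5:**
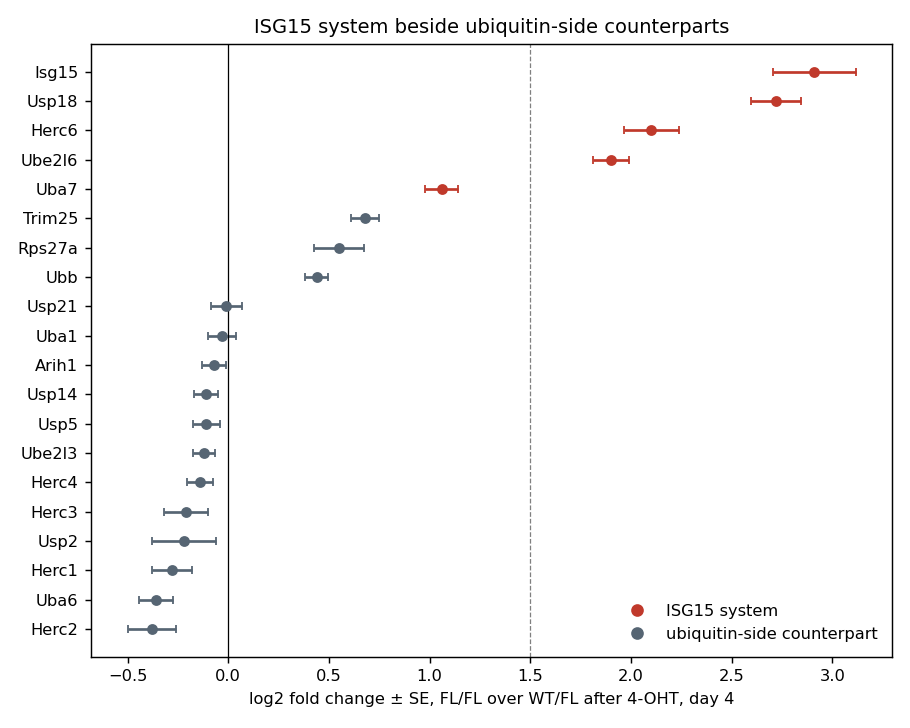
Log2 fold change with its SE (horizontal axis) of treated *Trex1* FL/FL over treated *Trex1* WT/FL cells on day 4, for the 5 genes of the ISG15 system (red) and 15 counterparts on the ubiquitin side (grey), with the threshold of 1.5 as a dashed line. The red points lie between 1.06 and 2.91 and the grey points between -0.38 and 0.68. The grey points include *Trim25* (0.68) and *Arih1*, which are also reported as ligases for ISG15.

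In other systems of ubiquitin-like modifiers (NEDD8, SUMO, UFM1, URM1, FAU and the ATG8 and ATG12 conjugation of autophagy), 29 of 30 listed genes were tested, all but *Ubd*. The study's thresholds called 0 of 29 with edgeR on each of the 4 days (0, 5, 6 and 12 had an unadjusted p below 0.05), and by the wider rule 6 were higher and 4 lower on day 4, with a median log2 fold change of 0.08, beside 13.4% and 16.8% of all genes. Among 12 genes of interferon signalling 4 were called higher on day 4 and 0 lower by the study's thresholds, with a median of 0.26 (1.65% of all genes were higher and 1.32% lower). By the wider rule 7 were higher and 2 lower, the latter *Ifnar1* (-0.37 ± 0.06), which encodes a chain of the type I interferon receptor, and *Jak1* (-0.20 ± 0.06), which encodes a kinase bound to it. *Ifnb1*, the gene of interferon beta, had 12 and 14 counts in the treated *Trex1* FL/FL libraries of day 4 and 0 counts in both treated *Trex1* WT/FL libraries, which makes it at least 6.55-fold higher against a floor of 3 counts per library. On day 1 all 4 treated libraries held 0 *Ifnb1* counts. The treated *Trex1* FL/FL libraries held 18 and 12 on day 2 and 15 and 20 on day 3, and the treated *Trex1* WT/FL libraries 6 and 3, and 2 and 3. The mean *Ifnb1* level in treated *Trex1* FL/FL cells was 0.389 CPM at day 2, 0.39 at day 3 and 0.378 at day 4. *Ifnb1* is among the 4 genes called higher by the study's thresholds and the 7 higher by the wider rule. With counts this low, it may have passed the filter on low counts only through the treated *Trex1* FL/FL libraries. Its place in both counts is then not independent of that filter. *Irf7* (2.38 ± 0.21) and *Stat2* (1.99 ± 0.12) were the next largest by log2 fold change. Among 18 genes whose proteins are reported to carry ISG15, 2 were called higher on day 4 and 0 lower, namely *Mx1* (3.27 ± 0.21) and *Serpina3g* (1.79 ± 0.42), and the median was 0.04. By the wider rule 6 of the 18 were higher and 4 lower. *Mx1* is itself an ISG, and *Jak1* and *Irf3* stand in both of these lists.

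The genes most like each member were named by Pearson's r over the 16 group means of log2 CPM, as a description that rests on shared libraries. For *Isg15* they were *Parp12* (0.9976), *Rsad2* (0.9976), *Cmpk2* (0.9962), *Oas1a* (0.9960) and *Irgm1* (0.9959). For *Usp18* they were *Cmpk2* (0.9980), *Parp12* (0.9951), *Rsad2* (0.9949), *Isg15* (0.9949) and *Phf11b* (0.9948). *Tor3a* (0.9965), *Usp18* (0.9947), *Mov10* (0.9933), *Cmpk2* (0.9932) and *Tdrd7* (0.9923) led for *Ube2l6*, and *Phf11b* (0.9969), *Igtp* (0.9964), *Mov10* (0.9958), *Irgm1* (0.9950) and *Rsad2* (0.9946) for *Herc6*. *Uba7* had a set of its own, with *Iigp1* (0.9979), *Slfn5* (0.9972), *Trim30d* (0.9971), *Epsti1* (0.9970) and *Tent5a* (0.9966), none of which was among the first 5 of another member. Among the members, r was between 0.986 and 0.995 for pairs of *Isg15*, *Ube2l6*, *Herc6* and *Usp18*, and between 0.900 and 0.951 for pairs with *Uba7*.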

How the data were processed

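RNA was sequenced from 32 libraries of BMDMs. The authors used JE to demultiplex, FastQC (version 11.9 per the labels) for quality control, Salmon for quantification and tximport for sums per gene, and name GRCm39. The deposited table gives estimated counts for genes, in whole numbers and not normalized. Of 54281 identifiers, 51048 matched GENCODE vM39, and the others held 0.32% of the counts. Groups came from the labels.

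Counts were tested with edgeR 4.0.16 (R 4.3.3) by the quasi-likelihood test, with TMM factors, a mean for each of 16 groups in 1 fit of 32 libraries (16 residual degrees of freedom) and Benjamini-Hochberg adjustment. Its filter on low counts (minimum 10) left 15257 genes. For log2 CPM the prior count was 2. The test was checked on simulated data. Totals of 35120505 to 63760884 set the precision, and floors of 3 counts cover counting error only. A gene without counts in a group was set at this floor.

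Named were the 5 members, *Trex1*, the 5 genes most correlated with each member, all ubiquitin-side counterparts and, of each other list, up to 3 called genes with the largest change on day 4. The members and lists were chosen with earlier results of these data known. Alternatives were RLE factors, DESeq2 1.42.0, no filter on low counts, only the 16 treated libraries, the wider rule, a prior count of 0.5, *Isg15* summed with genes that share at least 5% of its words, and leaving out each library. Some listed genes are not reported here and were left out of the list counts. PCR and protein experiments were not analysed here.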

Additional observations from a re-analysis of the deposited data

Results flagged for a closer look

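Groups of 2 libraries were too small for a check of single outlying libraries. The results below stand out because an effect differed between genotypes or between days by a test of the difference itself (edgeR's quasi-likelihood test, adjusted p below 0.01). The 4-OHT effect differed between *Trex1* FL/FL and *Trex1* WT/FL cells on day 2 by a log2 value of 1.70 for *Isg15*, 0.90 for *Uba7*, 1.08 for *Ube2l6*, 1.40 for *Herc6* and 1.51 for *Usp18*. On day 3 it differed by 1.20 for *Isg15*, 0.82 for *Ube2l6*, 0.92 for *Herc6* and 1.34 for *Usp18*, with *Isg15* close to the threshold (adjusted p = 0.00967). On day 4 it differed by 2.52 for *Isg15*, 1.01 for *Uba7*, 1.63 for *Ube2l6*, 2.20 for *Herc6* and 2.43 for *Usp18*. By the wider rule 4.97%, 4.9% and 7.38% of all genes were higher in this comparison on days 2, 3 and 4. The share of all genes at an adjusted p below 0.01 is not given.

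The genotype difference after 4-OHT changed from day 1 to day 2 by 0.76 for *Uba7*, 0.92 for *Ube2l6*, 1.05 for *Herc6* and 0.83 for *Usp18*. From day 3 to day 4 it changed by 1.55 for *Isg15*, 0.70 for *Uba7*, 0.92 for *Ube2l6*, 1.08 for *Herc6* and 1.29 for *Usp18*. In each of these results the value was positive, so that the effect was larger in *Trex1* FL/FL cells or on the later day. By the wider rule the genotype difference changed for 5.31% of all genes from day 1 to day 2 and 7.08% from day 3 to day 4. From day 1 to day 2 *Usp18* did not pass the wider rule with only the treated libraries in the fit (adjusted p = 0.0719). Without the first treated *Trex1* WT/FL library of day 1 its value was 0.59.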

How the results depend on the processing

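No paired analysis was possible because the labels give no replicate number, animal or batch that would tie libraries across groups. With RLE factors, DESeq2, no filter on low counts or only the treated libraries, no log2 fold change of a member changed direction or its side of the study's thresholds. Summing *Isg15* with *Gm9706* could not change a result, since *Gm9706* held 2 counts over all libraries beside 185275 for *Isg15*. *Gm46878*, which shares more words with *Isg15*, is not in the count table and could not be added. By an adjusted p below 0.05 alone, the calls of members in the 35 comparisons changed with the fit. Without the filter 19 of 175 were gained and 0 lost, in a fit that gave all 26767 genes infinite prior degrees of freedom, so that the spread of a gene's own libraries did not enter its test. DESeq2 gained 6 and RLE factors 1, only the treated libraries lost 4 of 65, and leaving out a library gained 4 and lost 31 of 840. By an adjusted p below 0.05 with no minimum fold, the count of members was 5 (not 1, 0, 3 and 2) for the genotype difference after 4-OHT on days 2 and 3 and the 4-OHT effect in *Trex1* FL/FL cells on days 2 and 3, 5 and 4 for the interaction on days 2 and 3, 3 for treated *Trex1* FL/FL, 2 for treated *Trex1* WT/FL and 3 for each untreated arm from day 2 to day 3, 5 in each of the 3 control arms from day 3 to day 4, and 5, 1 and 5 for the change of the genotype difference between consecutive days.

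Leaving out each library in turn, the count by the study's thresholds ranged from 1 to 2 for the genotype difference after 4-OHT on day 2, 0 to 2 on day 3, 1 to 3 for the interaction on day 2, 0 to 1 on day 3, 0 to 1 for the fall of treated *Trex1* WT/FL cells from day 3 to day 4 and 0 to 1 for the change of the genotype difference between those days. The count of 1 for this change, *Isg15*, became 0 without the second treated *Trex1* WT/FL library of day 3, the first of day 4 or the second treated *Trex1* FL/FL library of day 3. The mean 4-OHT difference in *Trex1* WT/FL cells ranged from 0.21 to 0.33 for *Herc6* and 0.08 to 0.18 for *Uba7*, and the difference of *Ube2l6* less *Herc6* from -0.18 to -0.11. Exact tests with a prior count of 0.5 or RLE factors stayed on their side of 0.05.

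Values near 0 that changed sign without 1 library, none of them called, had these ranges. For the untreated genotypes they were -0.72 to 0.22 for *Isg15* and -0.03 to 0.09 for *Ube2l6* on day 1, -0.20 to 0.10 for *Isg15*, -0.08 to 0.03 for *Uba7* and -0.10 to 0.04 for *Ube2l6* on day 2, -0.03 to 0.23 for *Herc6* and -0.0038 to 0.17 for *Usp18* on day 3, and -0.22 to 0.02 for *Herc6* on day 4. For 4-OHT in *Trex1* WT/FL cells they were -0.15 to 0.12 for *Herc6* on day 1, and -0.05 to 0.26 on day 2 and -0.0032 to 0.17 on day 4 for *Uba7*. For 4-OHT in *Trex1* FL/FL cells on day 1 they were -0.20 to 0.74 for *Isg15*, -0.06 to 0.06 for *Ube2l6* and -0.03 to 0.08 for *Herc6*, and for the interaction on day 1 -0.10 to 0.17 for *Herc6*. From day 3 to day 4 in treated *Trex1* FL/FL cells they were -0.02 to 0.25 for *Isg15*, -0.16 to 0.01 for *Uba7* and -0.02 to 0.13 for *Ube2l6*. From day 2 to day 3 they were -0.30 to 0.01 for *Ube2l6* and -0.12 to 0.21 for *Herc6* in treated *Trex1* WT/FL cells, -0.23 to 0.03 for *Herc6* in untreated *Trex1* WT/FL cells, and -0.23 to 0.08 for *Ube2l6* and -0.14 to 0.19 for *Usp18* in the change of the genotype difference. The wide *Isg15* ranges of day 1 rest on the untreated *Trex1* FL/FL libraries, at 11.6 and 6.08 CPM.

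With 2 libraries a group, an exact permutation test of 1 day cannot go below p = 0.333, so single days rest on the spread that all 16 groups share.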
